A study of Mus musculus with 8 samples.

Results

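Fc receptors bind the constant part of antibodies, and the 10 genes described here encode such receptors and the adaptors and kinase that signal from them: Fcgr1, Fcgr2b, Fcgr3, Fcgr4, Fcer1g, Fcrls, Tyrobp, Trem2, Fcgrt and Syk. They were taken by symbol, and each had a row among the 15047 genes of the deposited RNA-Seq values. The genes were listed by name and selected on the same rlog values, since the differences between these mice were known when the list was made, so their levels and differences are a description, and no count of them is used as support.

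RNA-Seq was made on total RNA from the pancreas of 8 male mice. 3 wild-type C57BL/6 mice ate a low fat diet (LFD) and 3 ate a high fat diet (HFD), in which fat gave 60% of the calories, both for 10 weeks from the age of 4 weeks. The remaining 2 were C57BL/6J mice of the ob/ob genotype, which lack functional leptin and ate standard chow, likewise from the age of 4 weeks, so that genotype and diet cannot be told apart between ob/ob and LFD mice. By the account of the study, mice of all groups had received an orthotopic injection of mT organoids, neoplastic cultures from a genetically engineered mouse model of pancreatic cancer driven by Pdx1-Cre. The sample labels do not mention it, and the tissue may therefore hold tumour as well as pancreas. Values are rlog values, which are on the log2 scale, corrected for library size, and shrunken where reads are few. A difference of 1 thus stands for a doubling. The depth of each mouse is unknown from these values, and the spread between mice is the only error given. The median of all genes lay between 7.09 and 7.25 in the 8 mice, and no pair of mice held an identical value for any gene. The acinar gene Cela2a, an elastase of pancreatic juice, had a mean of 19.74 and was the most abundant of 24 acinar markers. Lep, the leptin gene, was at 6.20, 5.86 and 6.28 in LFD, 7.27, 7.26 and 7.31 in HFD, and 8.12 and 6.78 in ob/ob replicates. The ob allele is a point mutation, so the level of the transcript does not check the genotype.

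Receptors for IgG on macrophages, neutrophils and other leukocytes come in opposing kinds. The activating receptors (Fcgr1, Fcgr3 and Fcgr4 in the mouse) bind antibody on their own chain and signal through the common gamma chain, the product of Fcer1g, whose ITAM motif is phosphorylated by Src-family kinases and then recruits the kinase SYK. Fcgr2b carries an ITIM motif in its own tail and recruits the phosphatase SHIP1, which dampens the same signal. TYROBP, also called DAP12, is a second ITAM adaptor that serves TREM2, a lipid-sensing receptor of tissue macrophages, and several lectin-type receptors. FCGRT is the heavy chain of the neonatal Fc receptor, which pairs with beta-2 microglobulin and returns IgG from endosomes to the blood or across an epithelium, and FCRLS is an Fc receptor-like protein of the mouse known as a marker of microglia.

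All 10 genes had higher means in the HFD mice than in the LFD mice, as had 52.4% of all genes, and all 10 had higher means in the ob/ob mice, as had 53.1% of all genes. The median difference on the log2 scale was 1.06 for HFD against LFD (0.59 for Fcgrt to 1.42 for Fcgr4) and 1.77 for ob/ob against LFD (0.92 for Syk to 2.32 for Fcrls), beside medians of 0.03 and 0.04 over all genes. Both comparisons share the LFD mice. No difference passed an adjusted p-value of 0.05 in limma with Benjamini-Hochberg adjustment over all genes, where the adjusted p-values of the 10 genes were 0.175 to 0.260 for HFD and 0.137 to 0.280 for ob/ob. The same test called 0 of all 15047 genes in either comparison. At an unadjusted p under 0.05, 8 of the 10 genes were higher in HFD, where 11.5% of all genes were, and 9 of 10 were higher in ob/ob, where 11.6% of all genes were. In a whole tissue, more cells that carry a gene and more RNA of it per cell cannot be told apart.

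Overlap between mice was counted as well. Every HFD mouse was above every LFD mouse for 7 of the 10 genes, as was the case for 12.9% of all genes, and both ob/ob mice were above every LFD mouse for 10 of 10, beside 24.1% of all genes. The exceptions in HFD were Fcgr1, Fcgr4 and Syk, and in each of them HFD replicate 1 was the mouse that fell among the LFD mice. Without HFD replicate 1, limma called 8 of the 10 genes for HFD against LFD (adjusted p 0.0158 to 0.0615, with 2812 genes or 18.7% of all called), and 2 for ob/ob, Fcgr2b and Fcrls, where 89 genes or 0.591% of all were called. HFD replicate 1 was also the HFD mouse with acinar markers at the level of the LFD mice. The mean rlog value of the 24 acinar markers was 17.34, 17.48 and 17.78 in LFD, 17.62, 15.56 and 13.60 in HFD, and 16.91 and 13.93 in ob/ob replicates. With this mean as a covariate, the median differences of the 10 genes were 0.81 for HFD and 1.39 for ob/ob against LFD, and the lowest were 0.27 and 0.29. At an unadjusted p under 0.05, 5 of the 10 genes were then higher in HFD, beside 6.05% of all genes, and 8 in ob/ob, beside 6.34%. Without LFD replicate 3 or without HFD replicate 2, the count for HFD in the model with no covariate was also 5, beside 6.52% and 6.04% of all genes.

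**Figure D1:**
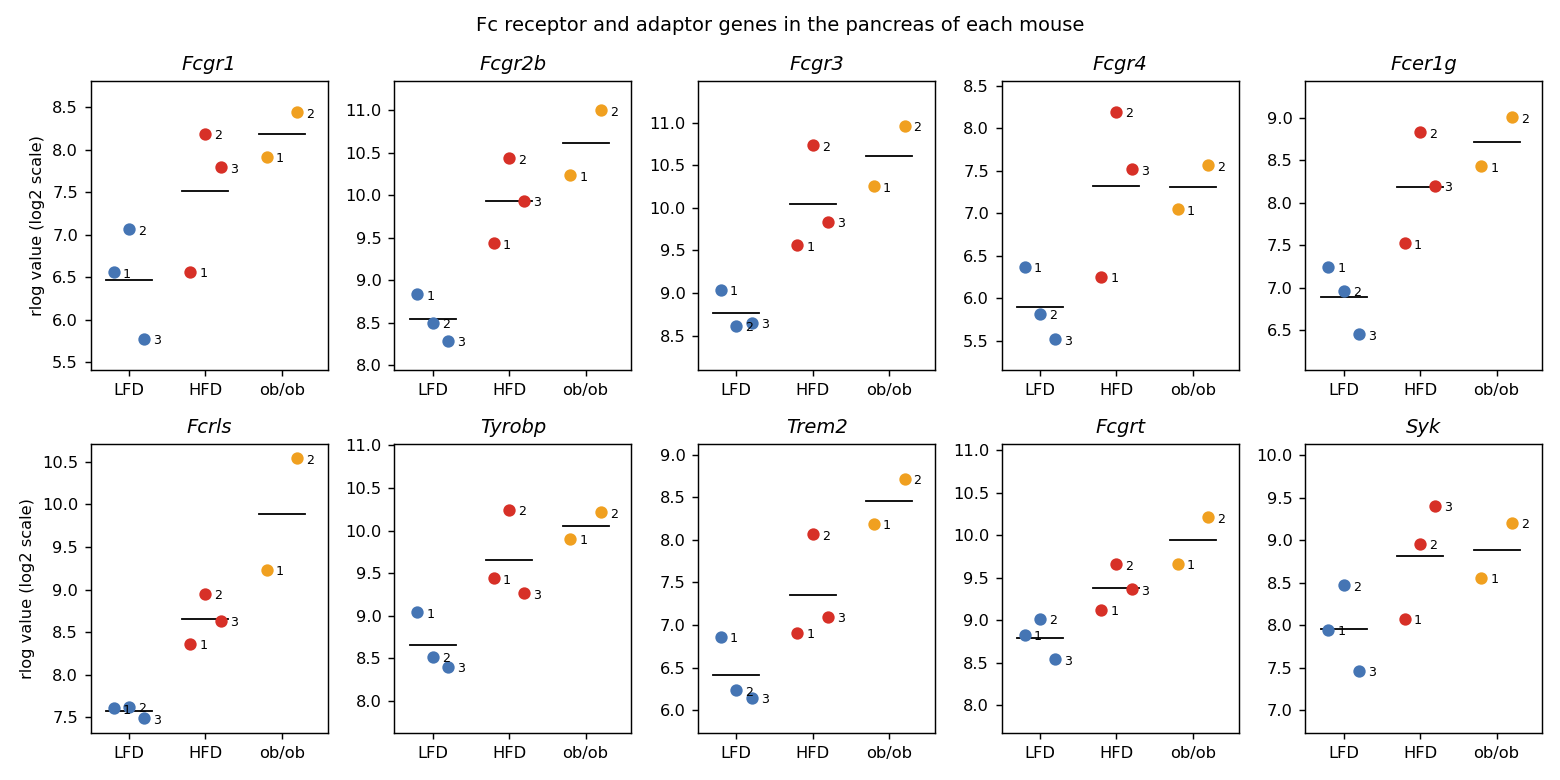
Rlog value (log2 scale) of the 10 genes in each mouse, with LFD mice in blue, HFD mice in red and ob/ob mice in orange. Numbers give the replicate, black bars are group means, and axes differ in position between genes. HFD replicate 1 is the lowest HFD mouse for 9 of the 10 genes, with Tyrobp as the exception, and ob/ob replicate 2 is above ob/ob replicate 1 throughout.

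Since these genes had higher means together, their promoters are shown for a shared short motif. RefSeq promoters (GRCm38.p6, 250 bases before to 50 after the start) were found for 9 of the 10 genes, in 11 entries. The letters GAGGAA, or TTCCTC on the other strand, form the core bound by PU.1, an ETS factor of macrophages and other myeloid cells. They were in 7 of the 11 entries (6 of the 9 genes) and in 28.3% of all 32851 promoters of this length. Both Fcgr3 entries hold the same site, which is counted in each, and the share of all promoters is per entry and not per gene. The longer GAGGAAGT, which contains the first, was in the Fcgr4 promoter only, and in 3.20% of all promoters. Below are the stretches of 50 bases that hold the motif in 4 receptor genes, in the direction of the gene, with TTCCTC in capitals. They lie at chr1:171018870-171018919 (Fcgr4), chr1:171059404-171059453 (Fcgr3), chr3:96294009-96294058 (Fcgr1) and chr17:48346327-48346376 (Trem2), all upstream of the gene except that of Fcgr3, which lies before a RefSeq start inside an intron of the longer Gencode gene.
Fcgr4: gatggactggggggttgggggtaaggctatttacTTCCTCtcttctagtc
Fcgr3: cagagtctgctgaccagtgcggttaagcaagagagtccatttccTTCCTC
Fcgr1: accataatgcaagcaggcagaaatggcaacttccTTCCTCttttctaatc
Trem2: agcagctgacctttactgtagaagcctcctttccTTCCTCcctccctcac
The first base of the motif stood at -22 (Fcgr4), -6 (Fcgr3), -55 (Fcgr1) and -40 (Trem2) from the start site, and Fcgr3, Fcgr1 and Trem2 shared the bases ttcc before it. Fcrls and a second Syk promoter also held these letters. The windows of Fcgr2b, Fcer1g and Fcgrt did not hold them. A match of letters is a description and shows no binding.

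Among the activating receptors, Fcgr3, a low-affinity receptor for IgG in immune complexes, was the most abundant per transcript length. Fcgr3 was at 9.04, 8.62 and 8.65 in the LFD mice, 9.56, 10.74 and 9.84 in the HFD mice, and 10.26 and 10.97 in the ob/ob mice. Its HFD and ob/ob mice all lay above its LFD mice, by 1.28 (SE 0.32, adjusted p = 0.179) and 1.84 (SE 0.36, adjusted p = 0.139) on average in limma. Fcgr1, the high-affinity receptor for monomeric IgG2a, spread most among LFD mice, with 6.56, 7.07 and 5.78 in LFD, 6.57, 8.19 and 7.79 in HFD, and 7.92 and 8.44 in ob/ob replicates. HFD replicate 1 was 0.50 below the highest LFD mouse, and the differences were 1.05 (SE 0.46, adjusted p = 0.254 in limma) for HFD and 1.71 (SE 0.52, adjusted p = 0.204) for ob/ob.

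Fcgr4, a receptor for IgG2a and IgG2b on macrophages and neutrophils, had similar means in HFD and ob/ob mice. It was at 6.37, 5.82 and 5.52 in LFD, 6.25, 8.19 and 7.52 in HFD, and 7.04 and 7.57 in ob/ob replicates. HFD replicates 2 and 3 bracketed or exceeded the ob/ob mice, while HFD replicate 1 was 0.11 below the highest LFD mouse. Differences from LFD were 1.42 (SE 0.47) for HFD and 1.40 (SE 0.53) for ob/ob mice, and ob/ob minus HFD was -0.02, over a range of -0.55 to 0.42 with each mouse left out. The 9 neutrophil markers in the table had median differences from LFD of 1.77 in HFD and 1.17 in ob/ob mice, and their part in the Fcgr4 values was not tested.

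The inhibitory receptor Fcgr2b had a difference of 1.73 (SE 0.27, adjusted p = 0.0810 in limma) between LFD and the average of both obese groups, beside 1.56, 1.41 and 1.38 for Fcgr3, Fcgr4 and Fcgr1. Fcgr2b was at 8.84, 8.50 and 8.29 in LFD, 9.44, 10.43 and 9.93 in HFD, and 10.23 and 11.00 in ob/ob replicates. The lowest obese mouse, HFD replicate 1, was above the highest LFD mouse. Differences from LFD were 1.39 (SE 0.30, adjusted p = 0.175) in HFD and 2.07 (SE 0.34, adjusted p = 0.137) in ob/ob mice. Set against Fcgr2b of the same mouse, the mean of the 3 activating receptors was at -1.49 ± 0.16 (SD, n = 3) in LFD, -1.64 ± 0.30 (n = 3) in HFD and -1.91 ± 0.13 (n = 2) in ob/ob mice. The HFD value ranged from -1.97 in replicate 1 to -1.39 in replicate 2 and overlapped the LFD values, which ran from -1.64 to -1.33, whereas both ob/ob mice lay below all LFD mice, the nearer at -1.82. Of the 3 activating receptors, Fcgr4 had the widest change of its gap to Fcgr2b in ob/ob mice, -3.31 ± 0.17 beside -2.64 ± 0.15 in LFD and -2.61 ± 0.50 in HFD mice. These gaps were not tested.

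Fcer1g encodes the gamma chain that the activating receptors need to reach the cell surface. Among the 10 genes its profile over the mice lay closest to that of the inhibitory Fcgr2b, followed by Fcgr3, Trem2, Fcgr1 and Fcgr4. Fcer1g was at 7.25, 6.97 and 6.46 in LFD, 7.53, 8.83 and 8.20 in HFD, and 8.43 and 9.01 in ob/ob replicates. No obese mouse overlapped the LFD mice, and the differences were 1.30 (SE 0.36) and 1.83 (SE 0.40) for HFD and ob/ob. Tyrobp, the most abundant of the 10 genes per length, was at 9.04, 8.51 and 8.39 in LFD, 9.44, 10.25 and 9.26 in HFD, and 9.90 and 10.21 in ob/ob replicates. HFD and ob/ob mice were all above the LFD mice, the nearest being HFD replicate 3, and the differences were 1.00 (SE 0.29) and 1.41 (SE 0.32).

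Trem2 differed from its adaptor in the ob/ob mice. Trem2 was at 6.86, 6.23 and 6.14 in LFD, 6.91, 8.07 and 7.09 in HFD, and 8.19 and 8.72 in ob/ob replicates. HFD replicate 1 was only 0.04 above the highest LFD mouse, and both ob/ob mice were above all other mice. The difference from LFD was 0.95 (SE 0.35, adjusted p = 0.215 in limma) in HFD and 2.04 (SE 0.39, adjusted p = 0.139) in ob/ob mice, and that of HFD was 0.59 without HFD replicate 2. Trem2 minus Tyrobp of the same mouse was -2.24 ± 0.06 (SD, n = 3) in LFD, -2.29 ± 0.21 (n = 3) in HFD and -1.60 ± 0.16 (n = 2) in ob/ob mice, where the values of -1.71 and -1.49 lay above the other 6 mice.

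Fcrls showed the widest difference of ob/ob from LFD mice. Fcrls was at 7.60, 7.62 and 7.49 in LFD, 8.36, 8.95 and 8.63 in HFD, and 9.24 and 10.54 in ob/ob replicates. The groups followed each other without overlap, and the SD of the LFD mice, 0.07, was the smallest of the 10 genes. Differences from LFD were 1.08 (SE 0.32, adjusted p = 0.181 in limma) for HFD and 2.32 (SE 0.35, adjusted p = 0.137) for ob/ob mice, and ob/ob replicate 1 alone was 1.66 above LFD when replicate 2 was left out. Of 6 markers named for microglia, 5 had higher means in each obese group, with medians of 0.74 and 1.36. The HFD median was 0.48 without HFD replicate 2, and that of ob/ob mice ran from 0.95 without replicate 2 to 1.90 without replicate 1. For Siglech, another of the 6, LFD replicate 2 was at 5.22 and the other 7 mice were at 3.21 to 3.94.

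Syk, the kinase that binds phosphorylated ITAMs, had smaller differences. Syk was at 7.95, 8.47 and 7.47 in LFD, 8.07, 8.96 and 9.40 in HFD, and 8.56 and 9.21 in ob/ob replicates. HFD replicate 1 was 0.40 below the highest LFD mouse, LFD replicate 2, and the differences of 0.85 (SE 0.38, adjusted p = 0.260 in limma) and 0.92 (SE 0.43, adjusted p = 0.280) had the highest adjusted p-value of the 10 genes in each comparison. SYK also acts downstream of the B cell receptor, and the part of B cells in the Syk values was not tested. LFD replicate 2 stood apart by its lymphocyte transcripts, with a summed linear value of 555.9 over 6 B cell markers beside 103.2 and 75.1 in the other LFD mice and 82.6 to 133.3 in the 5 obese mice. The Syk difference of both obese groups from LFD was 0.89, and ran from 0.64 without LFD replicate 3 to 1.14 without LFD replicate 2. For HFD it was 0.55 without HFD replicate 3, and for ob/ob 0.60 without ob/ob replicate 2.

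Fcgrt, which is used by endothelial and epithelial cells as well as by myeloid cells, had a difference of 0.59 (SE 0.22, adjusted p = 0.219 in limma) in HFD, the smallest of the 10 there, and of 1.14 (SE 0.25, adjusted p = 0.157) in ob/ob mice. Fcgrt was at 8.83, 9.02 and 8.54 in LFD, 9.13, 9.66 and 9.37 in HFD, and 9.67 and 10.21 in ob/ob replicates. Obese and LFD mice did not overlap, with HFD replicate 1 nearest to the LFD mice. Its partner B2m, beta-2 microglobulin, was higher by 0.84 (SE 0.26, adjusted p = 0.125) in the mean of both obese groups, and Fcgrt minus B2m was -1.87 ± 0.02 for LFD, -2.06 ± 0.30 for HFD and -1.63 ± 0.07 for ob/ob mice.

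**Figure D2:**
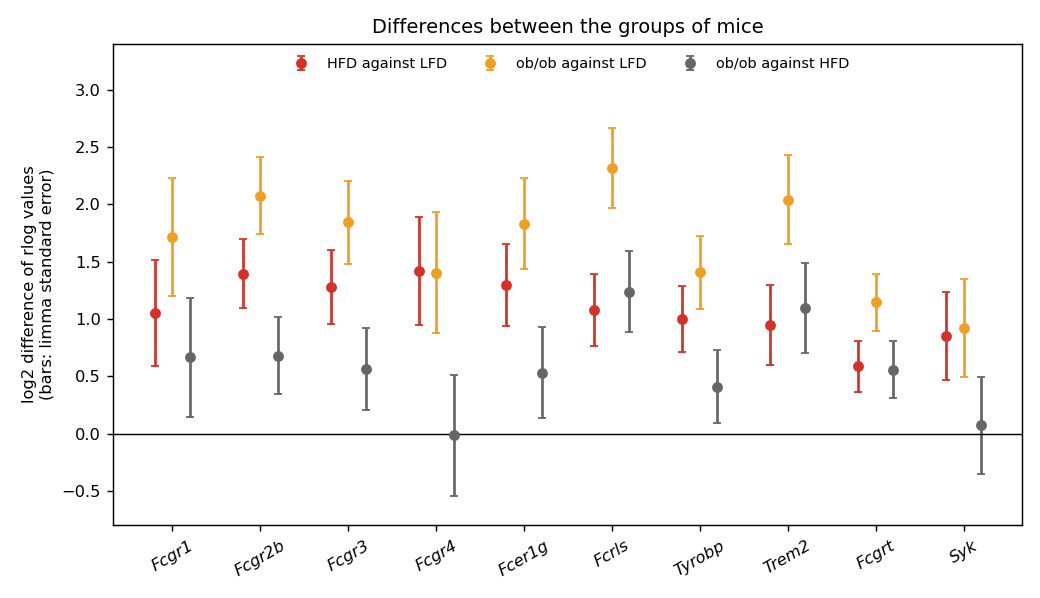
Log2 difference of rlog values for the 10 genes, with the standard error from limma as bars. Differences from LFD are above 0 for every gene, and the differences of ob/ob from HFD run from -0.02 (Fcgr4) to 1.24 (Fcrls).

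Genetic and diet-induced obesity were compared directly. 9 of the 10 genes, and 51.7% of all genes, had a higher mean in ob/ob than in HFD mice, with a median of 0.56 beside 0.01 over all genes. None passed in limma (adjusted p = 1.00 for each after rounding), and at an unadjusted p under 0.05 there were 2 of 10, Fcrls with 1.24 (SE 0.35) and Trem2 with 1.10 (SE 0.39), where 2.28% of all genes were higher. This count rested on ob/ob replicate 2, without which it was 0, beside 1.8% of all genes, and the difference of Fcrls was 0.58. With each mouse left out in turn the count ran from 0 to 6, the latter without HFD replicate 2, beside 2.33% of all genes. Both ob/ob mice were above all HFD mice for 3 genes, Fcrls, Trem2 and, by 0.01, Fcgrt, beside 7.92% of all genes. When both obese groups were averaged and set against LFD, all 10 genes and 53.5% of all genes were higher in mean, the median of the 10 genes was 1.45 beside 0.04 over all genes, and adjusted p-values were 0.0810 to 0.165. All 10 had an unadjusted p under 0.05 where 14.5% of all genes were higher, and 7 had no overlap between the 5 obese and the 3 LFD mice where 9.4% of all genes had none.

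Macrophage markers had higher means in the same mice as the 10 genes. The 17 macrophage markers, all in the table and led by Lyz2 (mean 13.57), had a mean rlog value of 8.54, 8.50 and 8.14 in LFD, 8.89, 9.79 and 9.49 in HFD, and 9.63 and 10.38 in ob/ob replicates. Their means differed from LFD by 1.00 in HFD and 1.61 in ob/ob mice, close to the 1.09 and 1.67 of the mean of the 10 genes, and HFD replicate 1 was again the lowest HFD mouse. Their summed linear value ran from 12286 to 16979 in LFD, 21182 to 41263 in HFD and 32436 to 59047 in ob/ob mice. The mean of the 10 genes minus that of the macrophage markers was -0.80 ± 0.08 (SD, n = 3) in LFD, -0.71 ± 0.12 (n = 3) in HFD and -0.74 ± 0.07 (n = 2) in ob/ob mice. Relative to macrophage markers the mean of the 10 genes differed by 0.07 between LFD and the mean of both obese groups, which is less than the spread between LFD mice. With the macrophage mean as a covariate in limma, the median differences of the 10 genes were 0.0103 for HFD and 0.13 for ob/ob from LFD, with 5 and 6 of the 10 genes above 0, where 48.3% and 47.1% of all genes were. In that model 0 of the 10 genes were higher at an unadjusted p under 0.05 in either comparison, beside 2.12% and 2.48% of all genes. The covariate itself differed between the groups, by the 1.00 and 1.61 above. The model therefore cannot tell the group from the macrophage markers, and no cause was tested.

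Single genes kept different places beside these markers. Fcgr2b minus the macrophage mean was 0.29, -0.01 and 0.15 in LFD, 0.54, 0.64 and 0.44 in HFD, and 0.60 and 0.62 in ob/ob replicates. The obese mice were all above the LFD mice, as for 0.153% of all genes on this scale, and no other of the 10 genes had that pattern. The macrophage mean was itself higher in the obese mice, which lowers most genes on this scale. The small share is therefore no measure of how unusual Fcgr2b is. Fcgrt was the opposite, at 0.29, 0.51 and 0.41 in LFD, 0.23, -0.14 and -0.13 in HFD, and 0.04 and -0.16 in ob/ob replicates. It was lower in all 5 obese mice, which held for 58.3% of all genes, since most genes did not move with the macrophage markers. Fcrls was 0.71 and Trem2 0.43 higher than in LFD in ob/ob mice on this scale, and 0.08 higher and 0.05 lower in HFD mice. The ob/ob mice differed in Fcrls, at -0.40 and 0.16 on this scale beside a mean of -0.82 in LFD mice, so that the value rests in part on replicate 2. Syk was 0.69 lower in ob/ob mice, and the difference in HFD mice was -0.15. None of these gaps was tested.

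**Figure D3:**
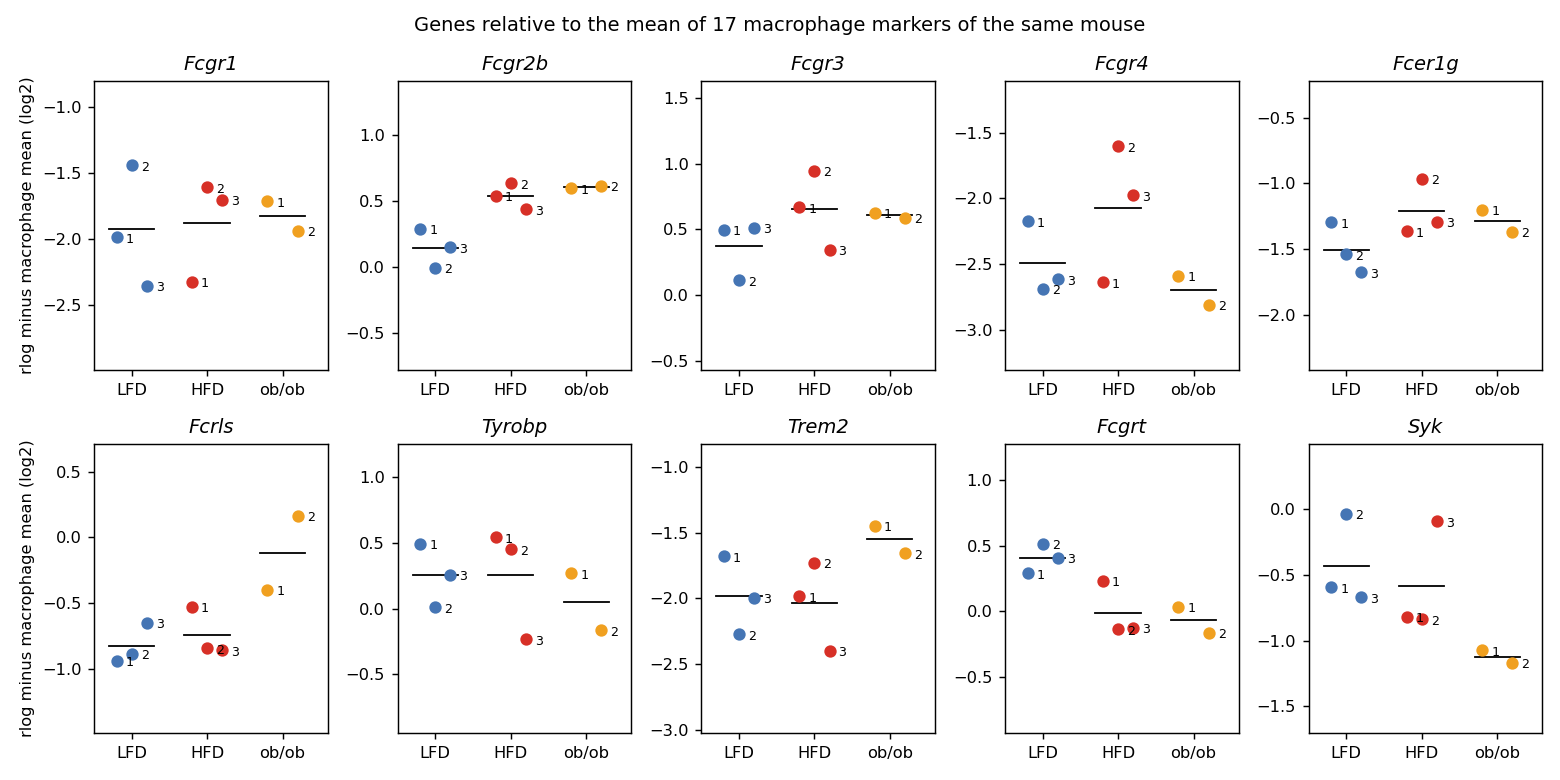
Rlog value of each gene minus the mean rlog value of 17 macrophage markers in the same mouse (log2), with numbers for replicates and black bars for group means. Fcgr2b is higher and Fcgrt lower in every obese mouse than in every LFD mouse, and the other 8 genes overlap between LFD and obese mice.

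Markers of other leukocytes were given for the same mice, since several of them carry Fc receptors. Of 8 general leukocyte markers, led by Ptprc (CD45), all had higher means in both obese groups, and the average over the list was 7.90 ± 0.52 for LFD, 8.71 ± 0.34 for HFD and 9.01 ± 0.37 for ob/ob mice. Neutrophil markers in the table, 9 of the 12 listed and led by Ltf, summed on the linear scale to 520.2 to 1100 in LFD, 1439 to 3554 in HFD, and 1190 and 981.9 in ob/ob mice. The defining neutrophil markers Ly6g, Camp and Ngp were not analysed here. LFD replicate 2 stood apart in lymphocyte markers. The mean of 6 B cell markers was 3.64, 6.34 and 3.48 in LFD mice, and that of 5 T cell markers, led by Cd3g (mean 4.97), was 3.67, 5.36 and 3.74. The median difference of the B cell markers from LFD was -0.71 in HFD and -0.83 in ob/ob mice, but 0.19 and 0.09 without this mouse, with 0 genes at an unadjusted p under 0.05 either way. T cell markers had a median of 0.14 for both obese groups, and of 0.72 without it. The 5 NK cell markers in the table were low throughout (Nkg7, the most abundant, had a mean of 3.53). Of the 7 dendritic cell markers, led by Zbtb46, 6 had higher means over both obese groups with 0 at an unadjusted p under 0.05. The medians of 6 mast cell markers, led by Kit, and of the 5 plasma cell markers in the table, led by Sdc1, were -0.04 and -0.30, and ran from -0.33 to 0.37 and from -0.59 to -0.04 with each mouse left out. Fibroblast markers, led by Col3a1, also had higher means, by medians of 1.14 in HFD and 1.31 in ob/ob mice, where the latter was 1.997 without ob/ob replicate 1 and 0.92 without replicate 2. Islet markers (led by Ins2) had a median difference from LFD of -0.45 in HFD but 1.25 in ob/ob mice, and duct markers (led by Krt8) one of 0.90 in HFD but -0.07 in ob/ob mice. The islet value in HFD mice was -0.11 without LFD replicate 2, that in ob/ob mice was 0.71 without replicate 1, the duct value in HFD mice was 0.52 without replicate 3, and the duct value in ob/ob mice was 0.39 without replicate 2. Adipocyte (Fabp4) and endothelial (Pecam1) markers had medians of -0.08 and 0.30 in HFD, and -0.17 and 0.09 in ob/ob mice, where both changed sign with a single mouse left out. The part of these cells in the values of the 10 genes was not tested.

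The antibodies that these receptors bind come from plasma cells. Of 13 antibody genes, only Jchain, the joining chain of IgA and IgM, was in the table, and the constant regions of the heavy and light chains were not analysed here. Jchain was at 8.71, 9.57 and 8.90 in LFD, 8.29, 7.90 and 10.18 in HFD, and 9.09 and 8.38 in ob/ob replicates. The groups overlapped fully, and the difference for both obese groups was -0.30 (SE 0.49, adjusted p = 0.722 in limma). It ran from -0.65 without HFD replicate 3 to -0.04 without LFD replicate 2. Of 12 other Fc receptor genes, 7 were in the table, and 3 of these had a higher mean over both obese groups (median -0.10), with 1 at an unadjusted p under 0.05. Without LFD replicate 2 all 7 had a higher mean, and the median was 0.68. Pigr, the epithelial receptor that carries IgA into secretions, had the largest difference of these at 0.88 (SE 0.58, adjusted p = 0.351), with HFD replicate 3 at 11.91 above all other mice, and 0.40 without ob/ob replicate 1. B2m followed, and the low-affinity IgE receptor Fcer2a of B cells had the smallest at -0.47 (SE 0.42, adjusted p = 0.486), where LFD replicate 2 was the highest mouse at 4.14 and without which the difference was 0.11. The genes of the high-affinity IgE receptor other than Fcer1g, Fcer1a and Ms4a2, were not analysed here.

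The receptors and enzymes around the 10 genes are next in order of the signal, as differences of both obese groups, averaged, from LFD. No gene of any list passed an adjusted p-value of 0.05 in limma, and the counts that follow are at an unadjusted p under 0.05, where 14.5% of all genes were higher and 10.9% lower. Of 23 receptors that use FCER1G or TYROBP or carry an ITAM-like motif themselves, 19 were in the table and 13 were higher and 0 lower, with a median of 1.22. Clec4n (dectin-2), a fungal lectin receptor that pairs with the gamma chain, had the largest difference of 1.88 (SE 0.36, adjusted p = 0.089) and was at 7.64, 7.56 and 6.97 in LFD and at 8.64 or more in all obese mice. Clec4d, its partner lectin, had 1.70 (SE 0.37), and Siglech, a receptor of plasmacytoid dendritic cells and microglia that uses TYROBP, had the smallest with -0.59 (SE 0.42), or -0.05 without LFD replicate 2. Of the 6 kinases of the Src and Tec families, 5 were higher (median 0.91). Btk, a kinase of B and myeloid cells, led with 1.37 (SE 0.29), and the broadly expressed Fyn was last with 0.32 (SE 0.22). The difference of Fyn was 0.10 without ob/ob replicate 2 and 0.53 without ob/ob replicate 1. Without LFD replicate 3, 3 of the kinases were higher, where 8.44% of all genes were.

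Downstream of SYK, 9 of 25 adaptors and effectors were higher and 0 lower, with a median of 0.71. Lcp2, the adaptor SLP-76, had 1.24 (SE 0.41), and Vav3, an exchange factor for small GTPases, had 1.21 (SE 0.30). Pik3ap1, the adaptor BCAP of B cells and macrophages, was at -0.22 (SE 0.19), the smallest of the 25. All 5 subunits of the phagocyte oxidase, which makes superoxide after Fc receptor engagement, were higher (median 1.10). The cytosolic subunit Ncf1 had 1.20 (SE 0.35), the catalytic membrane subunit Cybb 1.15 (SE 0.28), and its partner Cyba 0.75 (SE 0.22). Without LFD replicate 3, the counts were 3 of 25 and 3 of 5, and the medians were 0.52 and 0.83. Without ob/ob replicate 2 the counts were 5 and 3, beside 8.94% of all genes, and without HFD replicate 1 they were 18 and 5, beside 21.2%.

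Inhibitory receptors and phosphatases, which oppose the ITAM signal, had a median difference of 1.07, with 12 of 19 higher and 0 lower. Lower means were seen for Inppl1 (-0.15) and Pag1. Lair1, a collagen receptor with ITIM motifs, was at 6.13, 6.64 and 6.09 in LFD, 6.76, 8.29 and 8.23 in HFD, and 7.67 and 8.95 in ob/ob replicates, with no overlap between obese and LFD mice and a difference of 1.75 (SE 0.42, adjusted p = 0.107 in limma). Dok2, an adaptor that binds RasGAP, had 1.73 (SE 0.28, adjusted p = 0.081), and Pag1, a membrane adaptor for CSK, had the smallest with -0.25 (SE 0.18). Of 15 genes linked to TREM2 in lipid-laden macrophages, 9 were higher (median 0.75), or 5 without LFD replicate 3. Lgals3 (galectin-3) had 1.68 (SE 0.36), and Itgax (CD11c) had 1.61 (SE 0.47), whereas the lysosomal protease Ctsl, which acinar and other cells also make, had -0.32 (SE 0.26). The Ctsl difference was -0.17 without ob/ob replicate 2 and -0.19 without HFD replicate 3.

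**Figure D4:**
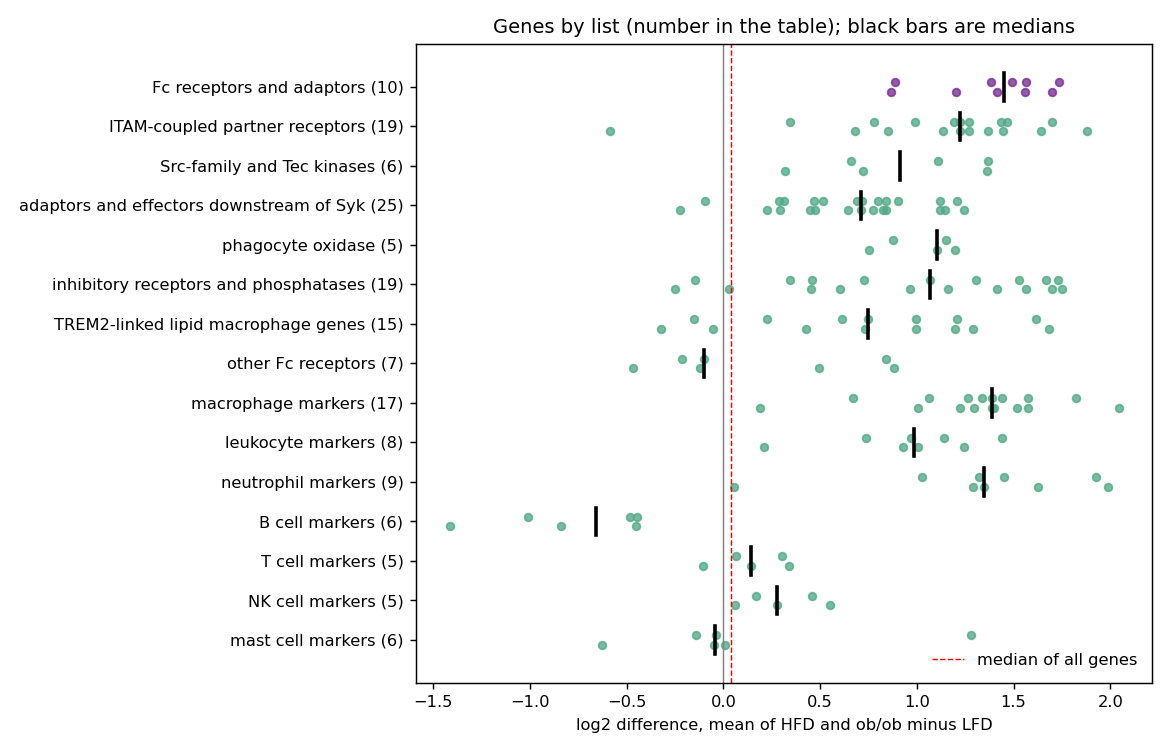
Log2 difference of both obese groups, averaged, from LFD (horizontal axis) for each gene of 15 lists, with the number of genes in the table in brackets, a black bar for the median of each list and a dashed line at 0.04 for the median of all genes. The 10 genes (purple) and the lists of partner receptors, kinases, oxidase, inhibitory receptors, macrophage, leukocyte and neutrophil markers have medians above 0.8, and B cell markers lie below 0, which rests on LFD replicate 2.

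Likeness between genes was measured as the root-mean-square gap between profiles over the 8 mice, each centred on the mean of the gene. The median gap of all genes to the mean profile of the 10 genes was 0.798. Fcer1g was the nearest of the 10 to their mean, with 0.121, and Syk the farthest, with 0.428. The closest pair was Fcgr2b and Fcgr3 with 0.149, followed by Fcgr2b and Fcer1g with 0.153, and the most distant was Fcrls and Syk with 0.684. Of the closest pair, Fcgr3 held the letters TTCCTC printed above and Fcgr2b did not. Outside the 10 genes, the nearest to their mean were Cyth4 (0.0835), an exchange factor of blood cells, Evi2a (0.107), the matrix protein Efemp2 (0.108), Plek (0.108), the platelet and leukocyte protein pleckstrin, Adgre1 (0.129), an adhesion receptor of macrophages, and Ctss (0.131), a lysosomal protease of antigen presenting cells. Cyth4 was at 8.36, 8.06 and 7.91 in LFD, 8.56, 9.60 and 9.24 in HFD, and 9.40 and 10.03 in ob/ob replicates. The genes nearest to Syk were the matrix protein Fbln7 (0.0912), the tropomyosin Tpm3 (0.110) and the death receptor Tnfrsf21 (0.127). These are descriptions over 8 mice of 3 groups, all measured on the same libraries.

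Compared per length (rlog minus log2 of the longest coding transcript in kb, Gencode M21), the order of levels in LFD mice was Tyrobp (9.39), Fcgr3 (8.34), Fcgrt (7.97), Fcer1g (7.44), Fcgr2b (6.71), Fcrls (6.39), Trem2 (6.29), Fcgr4 (5.57), Syk (5.54) and Fcgr1 (5.09). Tyrobp was above Fcgr3 in all 8 mice. Of the other neighbours in this order only Fcgr2b and Fcrls did not overlap among LFD mice. In ob/ob mice Tyrobp (10.80) and Fcgr3 (10.18) kept the first places, Fcer1g (9.27) was above Fcgrt (9.12), and Syk (6.46) was last below Fcgr1 (6.81), with overlap within both of these pairs. The lengths are of 1 transcript a gene and not of the isoforms present in the tissue.

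Fcgr2b and Fcgr3 are near-identical over part of their extracellular region, and the authors' quantification shares such reads between genes by probability. Of the 31-base words in the annotated transcripts of Fcgr3, 13.4% were also found in those of Fcgr2b, and for Fcgr2b 4.15% were found in Fcgr3 and 8.15% in any other gene. For the other 8 genes the share was 1.88% or less. How far this sharing bears on the closeness of the Fcgr2b and Fcgr3 profiles was not tested.

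Of the 10 genes, 4 lie together on chromosome 1 within 275.75 kb (GRCm38, Gencode M21, all protein coding): Fcgr2b at chr1:170958617-170976547 on the minus strand, Fcgr4 at chr1:171018920-171029761 on the plus strand, Fcgr3 at chr1:171051174-171064935 on the minus strand, and Fcer1g at chr1:171229572-171234365 on the minus strand. The others lie apart, Fcgr1 at chr3:96282909-96293969, Fcrls at chr3:87250758-87263738, Tyrobp at chr7:30413760-30417585, Fcgrt at chr7:45092990-45103851, Syk at chr13:52583173-52648792 and Trem2 at chr17:48346401-48354147. Within 100 kb of the chromosome 1 cluster, 15 other genes were in the table. Their median difference for both obese groups against LFD was -0.21, with 6 of 15 higher, while the 4 genes of the cluster had 1.41 to 1.73. Sdhc, a subunit of the respiratory chain, was at -0.32, and Tomm40l, which lies between Fcgr3 and Fcer1g, was at -0.68. The neighbours included 1 gene with a wider difference than the cluster itself, the aggrecanase Adamts4 with 1.99, and Apoa2, beside Fcer1g, had 0.62. These examples among the neighbours were chosen after their values were seen.

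**Figure D5:**
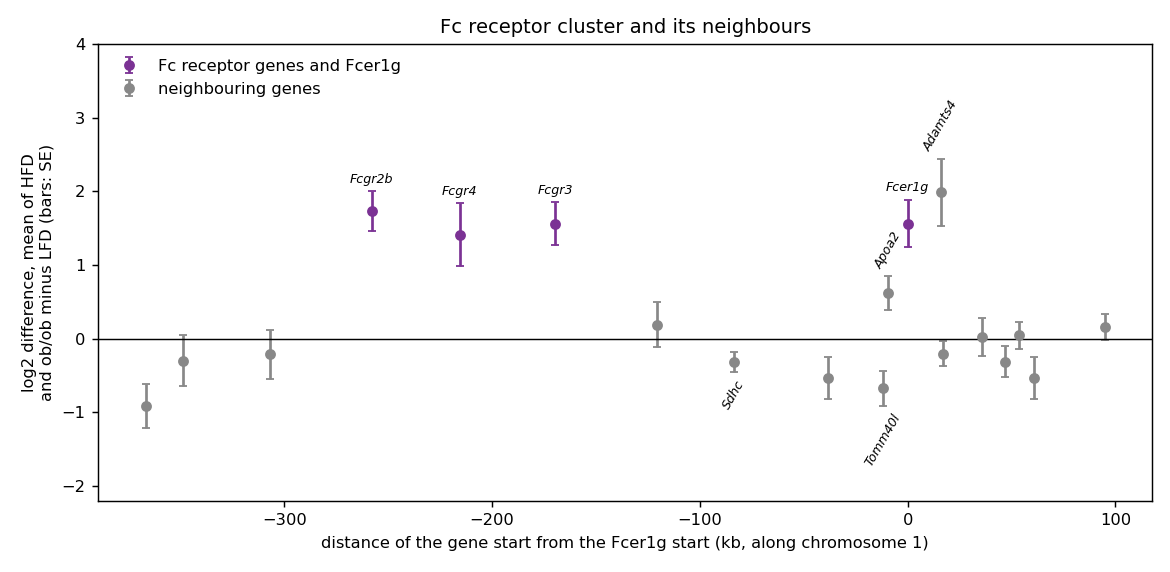
Log2 difference of both obese groups, averaged, from LFD, with standard errors from limma, by distance of the gene start from the Fcer1g start in kb. The 4 genes of the cluster (purple) lie at 1.41 to 1.73, and of the 15 neighbours (grey, those named in the text labelled) Adamts4 alone lies higher.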

How the data were processed

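RNA-Seq of the pancreas of 8 mice was used, grouped by diet or genotype as the labels give them. The authors ran FastQC, quantified reads with Salmon 0.11.3 against Gencode M18 (GRCm38.p6), summarized them per gene with tximport and applied the rlog function of DESeq2 1.22.2. The deposited values are on the log2 scale for 15047 genes, after a filter that is not described in the sources used here. They are not counts, so no count test was run and the depth is unknown.

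The fit was made in limma 3.58.1 (R 4.3.3), with 1 mean for each group, all 8 mice, an empirical Bayes trend and Benjamini-Hochberg adjustment over all genes, in 4 comparisons. The step was tested on simulated data. Replicates were different animals. Genes named from lists had the 2 largest and the smallest differences of both obese groups against LFD, and marker lists were named by their most abundant gene, though some genes that this rule names are not reported here. Marker lists were written by hand. The genes and lists were chosen with earlier results of these data known. Means over lists and gaps to macrophage markers were descriptions without a test. Coordinates are those of Gencode M21 (GRCm38), and promoters those of RefSeq. Alternatives were no variance trend, only the groups compared, only genes whose mean rlog value was 5 or more, median centring, quantile normalization, each mouse left out, a replicate block, and acinar or macrophage markers as covariates.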

Additional observations from a re-analysis of the deposited data

How the results depend on the processing

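Of 1674 recomputed values, 1570 kept their direction and their side of the threshold or moved by less than the spread, 28 passed the threshold under an alternative, 52 moved and 24 changed sign. The medians of the 10 genes ranged, with each mouse left out, over 0.85 to 1.37 for HFD against LFD, 1.47 to 2.05 for ob/ob against LFD, 0.27 to 0.88 for ob/ob against HFD and 1.26 to 1.67 for both obese groups against LFD. The number of all genes with an adjusted p-value under 0.05 in limma ranged over 0 to 2812, 0 to 89, 0 to 1 and 0 to 3326 in the same order. The highest counts of the 3 comparisons with LFD came without HFD replicate 1, and without ob/ob replicate 1 the count for both obese groups was 476. For both obese groups against LFD, all 10 genes then passed without HFD replicate 1 (adjusted p 0.0113 to 0.0289) and 5 without ob/ob replicate 1. The marker and pathway lists were recomputed with each mouse left out after seeing the data. With only the groups compared, 1 gene was called for HFD and 38 for ob/ob against LFD, Fcgr2b and Fcgr3 among them. With acinar markers as a covariate, 1 gene was called in each comparison but HFD against LFD. For ob/ob against HFD, 8 of the 10 genes did not overlap without HFD replicate 2, beside 13.7% of all genes. With any other LFD or HFD mouse left out it was 3, beside 7.92% to 14.9% of all genes.

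With macrophage markers as a covariate the medians were 0.0103, 0.13, -0.0281 and 0.0912 in the same order. Differences that turned negative were, for HFD against LFD, Fcgr1 -0.48, Fcgr4 -0.15, Trem2 -0.0541, Fcgrt -0.0811 and Syk -0.29, and for ob/ob against LFD, Fcgr1 -0.75, Fcgr4 -1.12, Fcer1g -0.14 and Syk -0.91. For ob/ob against HFD they were Fcgr1 -0.27, Fcgr3 -0.0596, Fcer1g -0.21 and Syk -0.62, and for both obese groups Fcgr1 -0.61, Fcgr4 -0.64, Fcer1g -0.0319, Fcgrt -0.0068 and Syk -0.60. Fcgr4, already below 0 for ob/ob against HFD, was the lowest there at -0.97. In that comparison 2 of the 10 genes had an unadjusted p under 0.05 in limma. Of these 1 was higher, beside 3.75% of all genes. The covariate itself differed between the groups. For ob/ob against HFD, leaving out a mouse moved Fcgr4 over -0.55 to 0.42 and Syk over -0.30 to 0.40, so their order between these groups rests on single mice. The median gap to macrophage markers of both obese groups against LFD was -0.0257 after quantile normalization, 0.0599 to 0.29 with each mouse left out, and 0.49 against leukocyte markers.

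Whether replicate numbers pair the mice could not be settled from deviations from the group means, which mirror each other in a group of 2 mice. Deviations of same-numbered LFD and HFD mice correlated by -0.06, 0.11 and -0.28. Those of LFD and ob/ob mice correlated by -0.10 and 0.13, and those of HFD and ob/ob mice by 0.59 and 0.30, so not every pair was over 0.1. With the replicate block the medians were 1.06, 1.67, 0.49 and 1.41, and 0 genes were called. With 2 or 3 mice a group and unknown depth, differences of the size of the spread between mice could not be called.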
